A study of Mus musculus with 38 samples.

Results

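The response of the liver to a single glucose load was followed in LIRFKO mice, in which hepatocytes have lost the insulin receptor together with FoxO1, a transcription factor. Livers of 3 LIRFKO mice taken 60 min after glucose (mice GTT_725, GTT_726 and GTT_727) were compared with livers of 3 LIRFKO mice that were only fasted (mice Fast_518, Fast_519 and Fast_525). These 6 samples are part of a set of 38. A further LIRFKO liver, mouse GTT_724, carries a glucose title beside labels that call it fasted, and it entered no comparison. All mice were males aged 11 to 12 weeks of a mixed strain (FVB/N-C57Bl/6), and all were fasted first, which some labels give as overnight and others as 24 h. Insr and Foxo1 were removed by Cre under the albumin promoter from floxed alleles, so that other liver cells keep both genes. Glucose was also given to mice that lack the insulin receptor alone (LIRKO, 3 glucose and 3 fasted) and to mice with floxed insulin receptor alleles and no deletion (IR floxed, 3 glucose and 4 fasted). Another 4 LIRFKO mice were refed for 6 h. No glucose group of mice with both floxed genes and no deletion was analysed here. RNA of each liver (200 ng) was labelled with Cy3 or Cy5 and measured on an Agilent two-colour array, and each deposited value is the normalized log2 intensity of 1 channel. The analysis covered 22485 genes, each read by its brightest probe. Levels are relative: a fall in bulk liver cannot be told apart from a smaller share of the cells that make the RNA.

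After a meal the rise of glucose in the portal blood makes the pancreas release insulin. Insulin acts on hepatocytes through its receptor and the kinase Akt, which phosphorylates FoxO1 and drives it out of the nucleus, so that the FoxO1 target genes of glucose production are turned down. Glucose itself also acts on hepatocytes without insulin, through metabolites that activate the factor ChREBP. Blood-borne signals and nerves that respond to the load reach the liver as well.

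The genotype was seen in every library. Insr measured 6.45 to 6.81 in the fasted and 6.18 to 6.33 in the glucose livers of LIRFKO mice, against 7.94 to 9.05 in the 7 fasted or glucose-treated IR floxed livers. Foxo1 measured 6.81 to 7.12 and 6.07 to 6.52, against 9.98 to 10.9. The 10 hepatocyte markers averaged 15.1 to 15.4 in each of the 6 LIRFKO livers, while 4 fat and 5 muscle markers averaged 5.41 to 5.63. Correlations between the 6 libraries over all genes lay between 0.985 and 0.994. Mouse GTT_726 stood apart. Its neutrophil list (9 genes) averaged 9.88, against 7.38 to 7.86 in the other 5 livers. Saa1, an acute phase protein, was at the top of the scale there, at 15.9, and between 10.1 and 11.8 in the others. S100a8 and S100a9, which neutrophils hold in large amounts, were at 10.9 and 12.3 in mouse GTT_726, and at 6.12 to 7.01 and 6.94 to 8.42 in the others. The median difference of the neutrophil list was 0.86, 2.11 within slide 185 and -0.02 within slide 184, and -0.06 without mouse GTT_726. Ly6g, a defining marker, was at 7.44 in that mouse and at 6.81 to 7.34 elsewhere. No gene of the list passed limma's adjusted threshold over the 3 mice (6 were higher at an unadjusted p under 0.05), nor did any of the other 11 cell type lists, and without mouse GTT_726 the difference in S100a8 was 0.16 in place of 1.92. The part of this library in the results below is given by leaving it out.

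Glucose was followed by changes of both signs. In limma, with Benjamini-Hochberg adjustment over all 22485 genes, 147 genes passed an adjusted p of 0.05, which is 0.654% of those tested: 77 were higher (0.342%) and 70 lower (0.311%) after glucose. At an unadjusted p under 0.05 the count was 2758. Groups did not overlap in 143 of the 147, against 13.1% of all genes. The test picked these genes from the same values, so their separation is not separate support. The median size of the change was 0.77 log2 among genes that rose and -0.78 among those that fell, and 44 genes changed by over 1 log2 (23 higher, 21 lower). A fasted and a glucose liver shared slide 184 (mice Fast_519 and GTT_725) and slide 185 (mice Fast_525 and GTT_726). Each within-slide value, above and below, is a single glucose liver minus a single fasted liver, with no dye term. The dyes differed: GTT_725 was in Cy3 and Fast_519 in Cy5, while GTT_726 was in Cy5 and Fast_525 in Cy3. Mice Fast_525 and GTT_726 were channels of the same array. Mouse, dye and state cannot be told apart in such a value. The count itself depended on few mice: it was 18 without fasted mouse Fast_525, 67 without glucose mouse GTT_725 and 69 without glucose mouse GTT_726, and 98 to 161 with any of the other 3 left out. It fell to 43 when the shared array was not modelled, to 59 with no dye term, and to 0 (2107 at an unadjusted p under 0.05) when only the 6 livers entered the limma fit. In all, 13 genes passed in each of the 6 fits that left out a mouse: 8 that rose (H2ac4, Slc22a26, Slc22a27, Plekhf1, Tcf24, Rnf144b, Prom2 and Ttyh3) and 5 that fell (Sucnr1, Slc25a34, Klf1, Gm28856 and 1700113H08Rik).

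**Figure D1:**
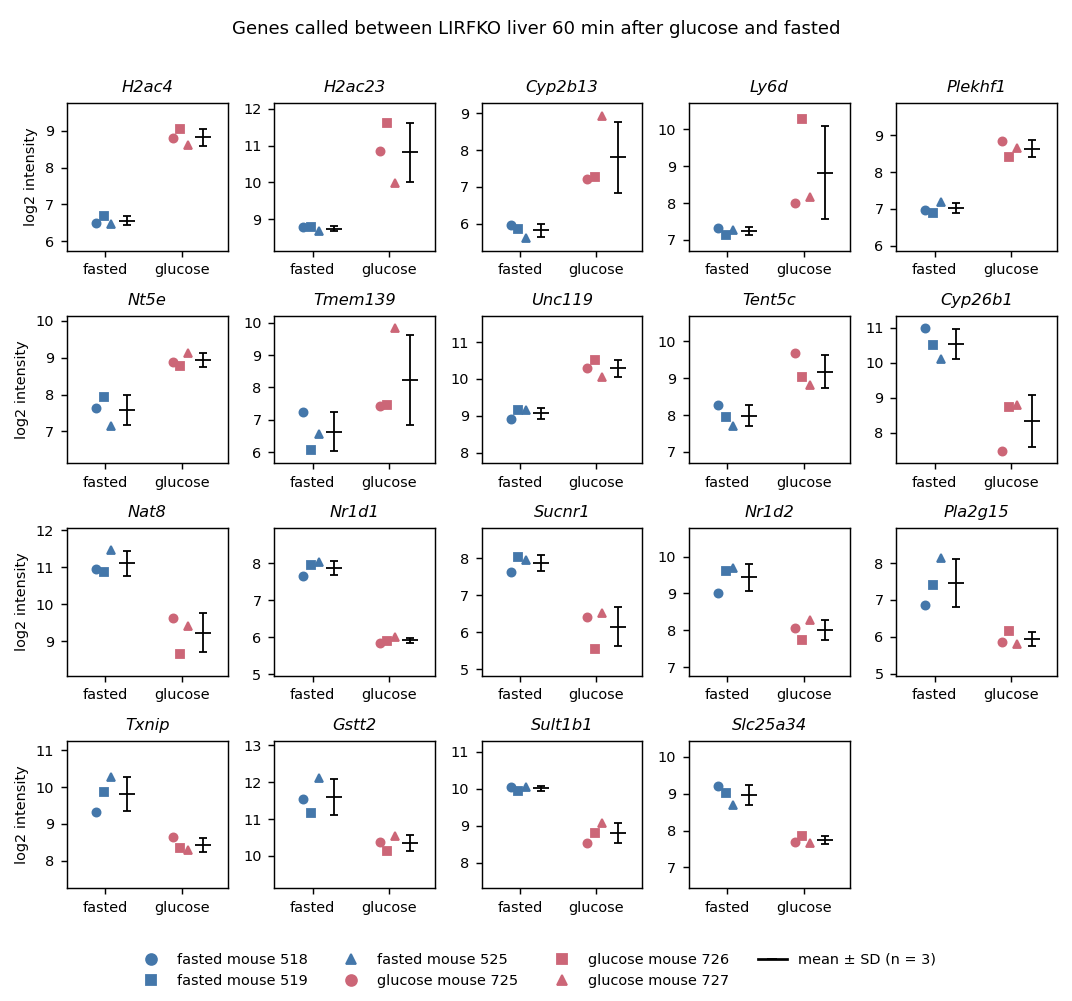
Log2 intensity (vertical axis, range set per panel) of 9 genes with large rises and 10 with large falls that passed the test, with non-overlapping groups and a level above the median gene, in the 6 LIRFKO livers. Each symbol is a mouse, and black bars give the mean and SD of 3; the spread is wide in Ly6d, where mouse GTT_726 is at 10.28, and in Tmem139, where mouse GTT_727 is at 9.84.

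Among the genes called, the largest rise was that of Slc22a26, a transporter gene, and its relative Slc22a27 rose with it. Both encode members of the organic anion transporter family and were named after their values were seen, since their levels lie under the median gene. Slc22a26 measured 5.50, 5.55 and 5.82 in fasted mice Fast_518, Fast_519 and Fast_525, and 7.40, 8.84 and 8.17 in glucose mice GTT_725, GTT_726 and GTT_727. Every glucose liver was above every fasted liver. The difference was 2.69 ± 0.28 (SE, n = 3 and 3; limma adjusted p = 5.07e-06), a 6.46-fold rise. For Slc22a27 the fasted values were 5.44, 5.48 and 5.49, and the glucose values were 6.49, 7.50 and 7.10. The lowest glucose liver, mouse GTT_725, was again the one with the smallest rise. The difference of 1.72 ± 0.19 (limma adjusted p = 5.26e-06) came to 3.29-fold. Fasted values of both genes lie at or near the median of all features on these arrays (5.72 to 5.78), where background limits how small a level can read, so both folds may be understated. The 2 genes belong to one family, and whether each probe reads its own transcript alone was not tested.

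**Figure D2:**
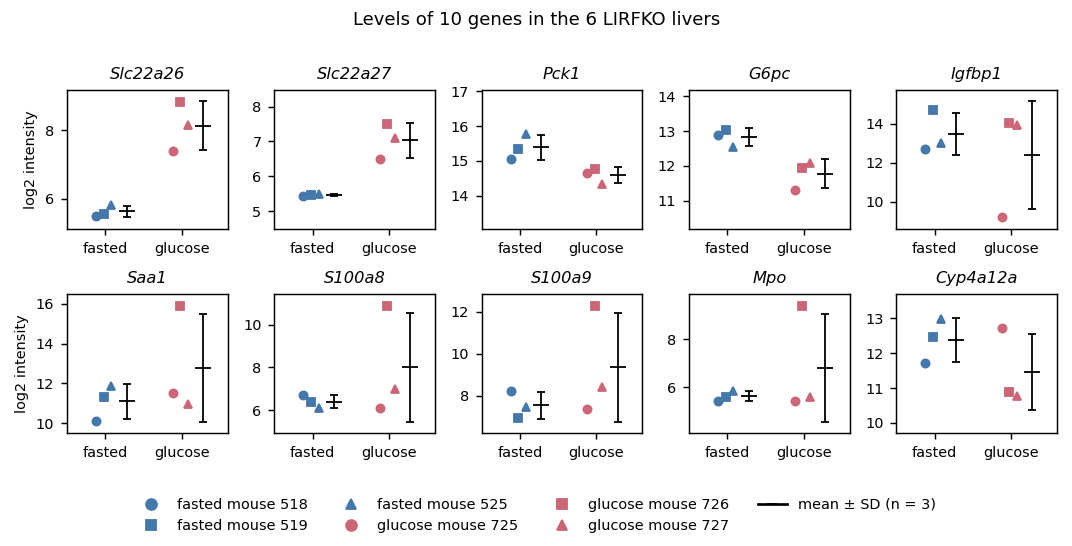
Log2 intensity of 10 genes in the 6 LIRFKO livers, with mean and SD of 3 in black and an axis range set per panel. The transporters Slc22a26 and Slc22a27 separate the groups, Igfbp1 is at 9.20 in mouse GTT_725 alone, and Saa1, S100a8, S100a9 and Mpo are high in mouse GTT_726 alone.

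A group of histone genes rose. Replication-dependent histones package new DNA, and their genes sit in clusters and are transcribed mainly in S phase. Of 45 measured members, 5 rose and none fell past the threshold, against 0.342% of all genes higher (22 were higher and 2 lower at an unadjusted p under 0.05 in limma). Of the 45 differences, 40 were above 0, and the list's median was 0.22 log2, against 0.00 over all genes. The median was 0.14 without mouse GTT_726, 0.19 within slide 184 and 0.37 within slide 185. H2ac4 measured 6.50, 6.69 and 6.48 in fasted mice Fast_518, Fast_519 and Fast_525, and 8.80, 9.05 and 8.60 in glucose mice GTT_725, GTT_726 and GTT_727. The groups did not overlap, and the difference was 2.23 ± 0.24 (adjusted p = 5.07e-06; 4.70-fold). H2ac23, which like H2ac4 encodes histone H2A, went from 8.78, 8.80 and 8.67 to 10.8, 11.6 and 9.99. All 3 glucose livers were above the fasted ones, GTT_726 the most and GTT_727 the least, and the difference was 2.17 ± 0.33 (adjusted p = 0.0012). H2bc4, an H2B gene, went from 12.7, 13.3 and 12.5 to 14.2, 13.8 and 13.9, a rise of 1.13 ± 0.19 (adjusted p = 0.0021). H2ac11 rose by 0.94 and H2bc14 by 0.78, each without overlap. H1f2, a linker histone, was also higher in every glucose liver (10.2 to 10.9, against 9.03 to 9.36) but did not pass (1.37, adjusted p = 0.141). H2ac4 alone of the 5 passed whichever mouse was left out: 1 histone gene passed without mouse Fast_525, 3 without mouse GTT_725 or GTT_726, and 5 or 6 otherwise. Coding sequences of H2A genes are nearly alike, so a probe may read more than its own gene. Most such RNAs end in a stem-loop and carry no poly(A) tail, and which form was labelled was not tested. Markers of proliferation gave 0 called of 17 (5 higher and 2 lower at an unadjusted p under 0.05 in limma). By the unadjusted rule 6.28% of all genes were higher and 5.99% lower. The list's largest rise was in Cdkn1a, an inhibitor of the cell cycle, at 6.51 to 10.3 fasted and 10.7 to 10.8 after glucose. Outside that list, 4 genes of mitosis passed, named after their values were seen, all at mean levels below the median gene. Cdc20, an activator of the anaphase-promoting complex, went from 6.33, 6.16 and 6.10 to 6.73, 7.18 and 6.59 (0.73 ± 0.14, adjusted p = 0.0115). The kinase Aurka differed by 0.60 (adjusted p = 0.0370) with overlapping groups, the kinesin Cenpe by 0.44 (adjusted p = 0.0478) and Espl1, the separase, by 0.21 (adjusted p = 0.0227). Each lost its call in 2 to 5 of the 6 fits that left out a mouse. Mki67, carried by cycling cells, measured 5.61 to 6.14 fasted and 6.18 to 6.76 after glucose (0.53, adjusted p = 0.0686).

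Because several histone genes moved together, the 250 bases before the start of those with an entry in RefSeq (GRCm38.p6) are shown 5′ to 3′ on the gene's own strand: H2ac4 (chr13:23750838-23751087, plus strand), H2ac23 (chr13:21810117-21810366, plus strand), H2ac11 (chr13:22042950-22043199, minus strand) and H2bc14 (chr13:21721794-21722043, plus strand). Capitals mark CCAAT, the box bound by NF-Y, and the octamer ATTTGCAT, bound by Oct1, each on either strand (ATTGG and ATGCAAAT on the other). No overlap between the 2 motifs occurs in these windows.
H2ac4: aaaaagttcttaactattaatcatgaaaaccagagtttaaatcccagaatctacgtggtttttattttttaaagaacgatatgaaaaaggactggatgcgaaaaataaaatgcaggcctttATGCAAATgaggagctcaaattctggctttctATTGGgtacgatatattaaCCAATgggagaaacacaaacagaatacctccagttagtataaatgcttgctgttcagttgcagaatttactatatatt
H2ac23: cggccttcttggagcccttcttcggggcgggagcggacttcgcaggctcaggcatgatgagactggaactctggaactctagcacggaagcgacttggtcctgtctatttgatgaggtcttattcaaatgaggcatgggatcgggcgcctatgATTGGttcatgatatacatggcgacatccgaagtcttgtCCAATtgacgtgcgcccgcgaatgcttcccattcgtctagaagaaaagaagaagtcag
H2ac11: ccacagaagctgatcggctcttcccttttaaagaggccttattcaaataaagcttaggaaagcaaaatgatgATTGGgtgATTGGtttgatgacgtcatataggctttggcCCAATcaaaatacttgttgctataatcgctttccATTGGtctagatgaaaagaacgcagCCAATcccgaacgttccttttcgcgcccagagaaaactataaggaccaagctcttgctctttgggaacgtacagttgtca
H2bc14: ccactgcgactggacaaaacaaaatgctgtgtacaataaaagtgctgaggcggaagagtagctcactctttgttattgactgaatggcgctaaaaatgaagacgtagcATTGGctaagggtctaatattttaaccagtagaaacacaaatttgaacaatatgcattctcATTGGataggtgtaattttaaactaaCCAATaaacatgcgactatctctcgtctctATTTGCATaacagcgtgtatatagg
H2ac4 holds CCAAT at -97 and -78 and the octamer at -129, counted from the start to the motif's first base as printed. H2ac23 holds CCAAT at -97 and -58. H2ac11 has 5 copies of CCAAT, and H2bc14 has 3 with an octamer at -25. Of the 45 histone genes 40 matched an entry, and CCAAT stood in 33 of them and the octamer in 12. Among all 32851 promoters of this length in the table, 33.9% held CCAAT and 1.60% the octamer. A gene was counted if any of its promoters held the motif, while these shares are per promoter.

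**Figure D3:**
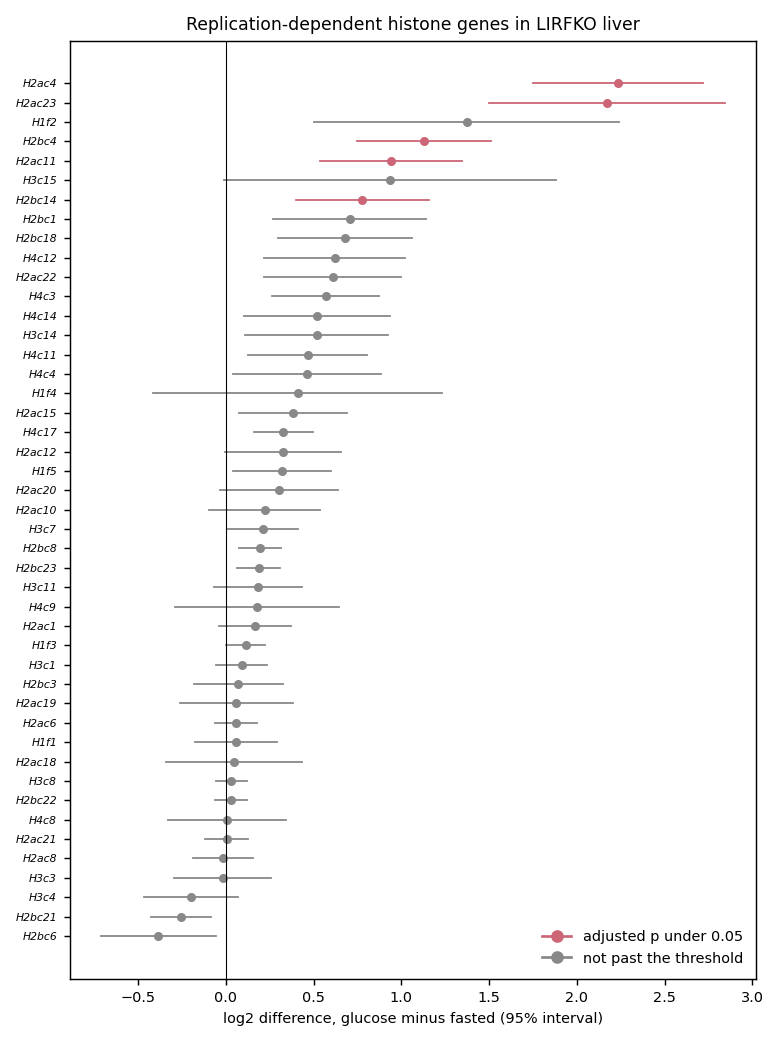
Log2 difference between glucose and fasted LIRFKO livers (points) with its 95% interval (lines) for the 45 measured replication-dependent histone genes, ordered by size. The 5 genes past the threshold, H2ac4, H2ac23, H2bc4, H2ac11 and H2bc14, are in red; 40 of 45 points lie above 0.

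Other large rises were in genes of varied function. Plekhf1, an adaptor of endosomes and lysosomes, measured 6.98, 6.90 and 7.18 fasted and 8.85, 8.41 and 8.65 after glucose. The groups did not overlap, the difference was 1.60 ± 0.26 (adjusted p = 0.0021; 3.04-fold), and it passed without any 1 mouse. Unc119, a carrier of lipid-modified proteins, went from 8.90, 9.16 and 9.16 to 10.3, 10.5 and 10.1 (1.34 ± 0.24, adjusted p = 0.0039). Nt5e, the ecto-enzyme CD73 that makes adenosine from AMP outside the cell, was at 7.64, 7.94 and 7.13 and rose to 8.87, 8.79 and 9.14 (1.52 ± 0.33, adjusted p = 0.0265). Tent5c, a poly(A) polymerase, rose by 1.18 without overlap. Cyp2b13, a cytochrome P450 found mainly in female mouse liver, was at 5.98, 5.86 and 5.63 fasted and at 7.22, 7.27 and 8.91 after glucose. Groups did not overlap, and mouse GTT_727 was the highest (2.02 ± 0.46, adjusted p = 0.0365). Its neighbours in the family did not pass: Cyp2b10 differed by 2.39 ± 0.93 (adjusted p = 0.272) and Cyp2b9 by 1.66 ± 0.53 (adjusted p = 0.159), and reads of one by the probe of another were not tested. Ly6d, a GPI-anchored surface protein, rested on mouse GTT_726, which read 10.28 against 8.01 and 8.18 in the other glucose livers. Its difference of 1.99 became 1.07 (adjusted p = 0.421) without that mouse. Tmem139 likewise rested on mouse GTT_727, without which 1.43 became 0.78 (adjusted p = 0.160).

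Among the genes that fell, the clock repressors Nr1d1 and Nr1d2 stood out. They encode REV-ERB alpha and beta, nuclear receptors that bind heme and repress Arntl (BMAL1). Nr1d1 measured 7.67, 7.96 and 8.03 in fasted mice Fast_518, Fast_519 and Fast_525, and 5.84, 5.90 and 6.00 in the glucose mice GTT_725, GTT_726 and GTT_727. The 3 glucose livers lay close together, near the bottom of the scale. The difference was -1.98 ± 0.42 (adjusted p = 0.0226). Nr1d2 went from 9.02, 9.61 and 9.69 to 8.05, 7.73 and 8.27, again without overlap (-1.55 ± 0.32, adjusted p = 0.0204), and its second probe moved by -1.22. Of the 19 clock genes measured, these 2 fell past the threshold, against 0.311% of all genes lower, and none rose. At an unadjusted p under 0.05 in limma, 2 were higher and 5 lower. The list's median was -0.31, and it was -0.08 without mouse GTT_727 and -0.16 without Fast_525. Nr1d1 and Nr1d2 each lost their call in 4 of the 6 fits that left out a mouse. Others did not pass: Ciart, a further clock repressor, went from 6.19, 7.49 and 7.77 to 5.39, 5.81 and 5.54 (-1.64, adjusted p = 0.0617). Arntl itself was higher in each glucose liver, at 8.89 to 9.09 against 6.39 to 8.47 (1.51, adjusted p = 0.343). Dbp, an output of the clock, varied from 8.47 to 13.0 among the fasted livers alone. Such a spread within a group is large beside the differences between groups. The labels give no hour of death, and its part was not tested.

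The upstream bases of Nr1d2 (chr14:18239107-18239356, minus strand) are printed because REV-ERB and ROR receptors bind the half-site AGGTCA, in capitals here.
Nr1d2: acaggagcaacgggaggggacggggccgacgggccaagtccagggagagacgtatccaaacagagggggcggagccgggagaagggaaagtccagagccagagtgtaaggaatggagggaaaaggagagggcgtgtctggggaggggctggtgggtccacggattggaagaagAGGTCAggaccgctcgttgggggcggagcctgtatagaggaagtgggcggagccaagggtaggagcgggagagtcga
The half-site stands at -77, and AGGTCA or TGACCT occurred in 14.02% of all promoters in the table. Of the 147 called genes, 118 matched an entry and 16 of these held it. Only this motif was marked in this gene, and what binds there was not tested.

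Txnip was the one member of the glucose-sensing list that passed. It encodes an arrestin-like protein that binds thioredoxin and restrains glucose uptake, and it is known as a ChREBP target that glucose raises. Here it fell: fasted values were 9.33, 9.86 and 10.3, and values after glucose were 8.65, 8.34 and 8.28. Fasted mouse Fast_518 was the lowest of its group, and still above every glucose liver. The difference was -1.43 ± 0.23 (adjusted p = 0.0021; 2.69-fold lower), -1.22 within slide 184 and -1.92 within slide 185, and a second probe moved by -1.07. The call was lost without fasted mouse Fast_525 (limma adjusted p = 0.133), and in none of the other fits that left out a mouse. None of the other 13 measured members passed, and 0.311% of all genes fell past the threshold. Arrdc4, its relative, moved by -0.37 (adjusted p = 0.644), Pklr by 0.05 and Klf10 by -0.77 (adjusted p = 0.244). The list's median was 0.06. Txnip is also described as a FoxO1 target, and its upstream bases (chr3:96557707-96557956, plus strand) hold 1 FoxO motif, TGTTTAC, here in capitals as GTAAACA on the printed strand.
Txnip: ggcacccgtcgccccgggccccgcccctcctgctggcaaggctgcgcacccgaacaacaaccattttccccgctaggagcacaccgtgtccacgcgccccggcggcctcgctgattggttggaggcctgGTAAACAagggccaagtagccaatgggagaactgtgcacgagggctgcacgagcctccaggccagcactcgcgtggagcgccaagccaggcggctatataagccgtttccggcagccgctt
The motif starts at -121, and 3.17% of all promoters in the table held it. Of the 147 called genes, 118 matched an entry and 2 of these held it. What binds there was not tested. Foxo1 was deleted from the hepatocytes of both groups compared.

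The remaining large falls were in genes of varied function. Slc25a34, a carrier of the mitochondrial inner membrane, measured 9.20, 9.01 and 8.69 fasted and 7.70, 7.87 and 7.67 after glucose. It fell by 1.23 ± 0.20 on the log2 scale (adjusted p = 0.0021) and passed without any 1 mouse. Sucnr1, the receptor of the citric acid cycle intermediate succinate, went from 7.64, 8.05 and 7.97 to 6.40, 5.53 and 6.51. Mouse GTT_726 was the lowest, and the difference of -1.88 ± 0.26 (adjusted p = 0.000537) kept its call without it. Cyp26b1, which clears retinoic acid, had the largest fall of the named genes, from 11.0, 10.5 and 10.1 to 7.48, 8.74 and 8.79 (-2.34 ± 0.55, adjusted p = 0.0419). It lost its call whichever mouse was left out. Nat8, an acetyltransferase of cysteine conjugates, went from 11.0, 10.9 and 11.5 to 9.64, 8.64 and 9.42 (-2.03 ± 0.46, adjusted p = 0.0349), and likewise lost its call in each of the 6 fits, as did Cyp2b13 and Cited2. Gstt2, a glutathione transferase, fell by 1.28 ± 0.22 and Sult1b1, a sulfotransferase, by 1.24 ± 0.21 (adjusted p = 0.0038 and 0.0032). These are enzymes of conjugation, and a list of such genes was not among those tested. Gstt2 lost its call in 2 of the 6 fits that left out a mouse, and Sult1b1 in 1. Pla2g15, the lysosomal phospholipase A2, went from 6.85, 7.40 and 8.13 to 5.85, 6.16 and 5.81 (-1.53 ± 0.24, adjusted p = 0.0018). Without fasted mouse Fast_525 its call was lost (limma adjusted p = 0.0993).

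A few smaller falls were named after their values were seen. Pdp2, the phosphatase that activates pyruvate dehydrogenase, measured 9.31, 9.48 and 9.76 fasted and 8.55, 8.61 and 8.64 after glucose. The difference was -0.98 ± 0.18 (adjusted p = 0.0064), although a dim second probe, at a mean of 5.63, moved by -0.06. Pdp2 lost its call in 2 of the 6 fits that left out a mouse. Ivd, of leucine breakdown, moved by -0.69 and Echdc2, an enoyl-CoA hydratase-like protein of mitochondria, by -0.68. The peroxisomal membrane genes Pxmp2 and Mpv17l moved by -1.06 and -1.02, and each of these 4 passed with no overlap. Slc27a1, a fatty acid transport protein, passed with overlapping groups: fasted mouse Fast_518 was at 7.30, beside 9.97 and 10.2 in the other fasted mice and 7.31 to 7.79 after glucose.

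Hormone-sensitive genes of glucose production moved less than their spread allowed to call. Pck1, the first committed enzyme of gluconeogenesis, was at 15.06, 15.34 and 15.77 in the fasted and at 14.7, 14.8 and 14.3 in the glucose livers. The groups did not overlap, but the difference of -0.97 ± 0.47 did not pass (adjusted p = 0.401), and its fasted values lie near the top of the scale. G6pc, glucose-6-phosphatase, the last step of glucose output, went from 12.9, 13.0 and 12.5 to 11.3, 11.9 and 12.1 (-0.85 ± 0.47, adjusted p = 0.486). Igfbp1, a secreted binding protein of IGFs that insulin turns down, was at 12.7, 14.7 and 13.0 fasted and at 9.20, 14.04 and 13.92 after glucose. Mouse GTT_725 alone was low: the difference was -5.51 within slide 184 and 1.03 within slide 185, and it turned from -0.66 to 0.46 without that mouse. Of 13 gluconeogenesis genes 11 were below 0 with a median of -0.28 (-0.44 without mouse GTT_726), and 0 were called by limma (1 higher and 4 lower at an unadjusted p under 0.05). Of 20 genes known as FoxO1 targets, Cited2 rose and Trib1 fell, against 0.342% of all genes higher and 0.311% lower. The list's median was -0.12. Cited2, a transcriptional co-regulator, measured 8.19, 8.38 and 8.53 and then 9.38, 9.32 and 9.48 (1.04 ± 0.25, adjusted p = 0.0419). Trib1, a pseudokinase that controls liver fat production, measured 9.49, 9.65 and 9.41 and then 8.60, 8.97 and 8.26 (-0.98 ± 0.23, adjusted p = 0.0381). It lost its call in 5 of the 6 fits that left out a mouse, and Cited2 lost its call in all 6. Irs2, the insulin receptor substrate under FoxO1 control, moved by 0.39 (adjusted p = 0.656), Ppargc1a by -0.70 (adjusted p = 0.545) and Pdk4 by -0.59 (adjusted p = 0.514). Slc25a25, a calcium-dependent ATP carrier of mitochondria, was at 12.5 to 12.6 in every fasted liver and at 9.84, 11.2 and 11.0 after glucose, without overlap (-1.59 ± 0.47, adjusted p = 0.120).

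Genes of lipid synthesis came next. Of 19 fatty acid synthesis genes, Acss2 fell and none rose past the threshold (2 did at an unadjusted p under 0.05), with a median of 0.03. Over all genes 0.311% fell and 0.342% rose past the threshold, and 6.28% were higher by the unadjusted rule. Acss2, which makes acetyl-CoA from acetate, went from 9.68, 9.45 and 10.1 to 8.90, 8.55 and 8.89 (-1.0 ± 0.22, adjusted p = 0.0326). It lost its call in 4 of the 6 fits that left out a mouse. Fasn, fatty acid synthase, was at 6.55 to 7.49 and at 6.61 to 7.68, a difference of 0.03 whose sign changed in 4 of the refits. Srebf1, the factor through which insulin raises lipid synthesis, moved by -0.11 (adjusted p = 0.907). Scd1, stearoyl-CoA desaturase, differed by 1.62 ± 0.52 (adjusted p = 0.165), with fasted mouse Fast_525 (10.7) as high as glucose mouse GTT_727 (10.7). The 21 cholesterol synthesis genes had a median of -0.41, with 0 called (0 higher and 2 lower at an unadjusted p under 0.05), and their median became 0.10 without mouse GTT_726 and 0.05 without mouse Fast_525. Among secreted proteins of the liver, Inhba, an activin subunit, rose from 6.85, 7.23 and 7.45 to 7.77, 8.34 and 7.96 (0.99 ± 0.23, adjusted p = 0.0365). It was the 1 gene of 14 that passed, against 0.342% of all genes higher.

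**Figure D4:**
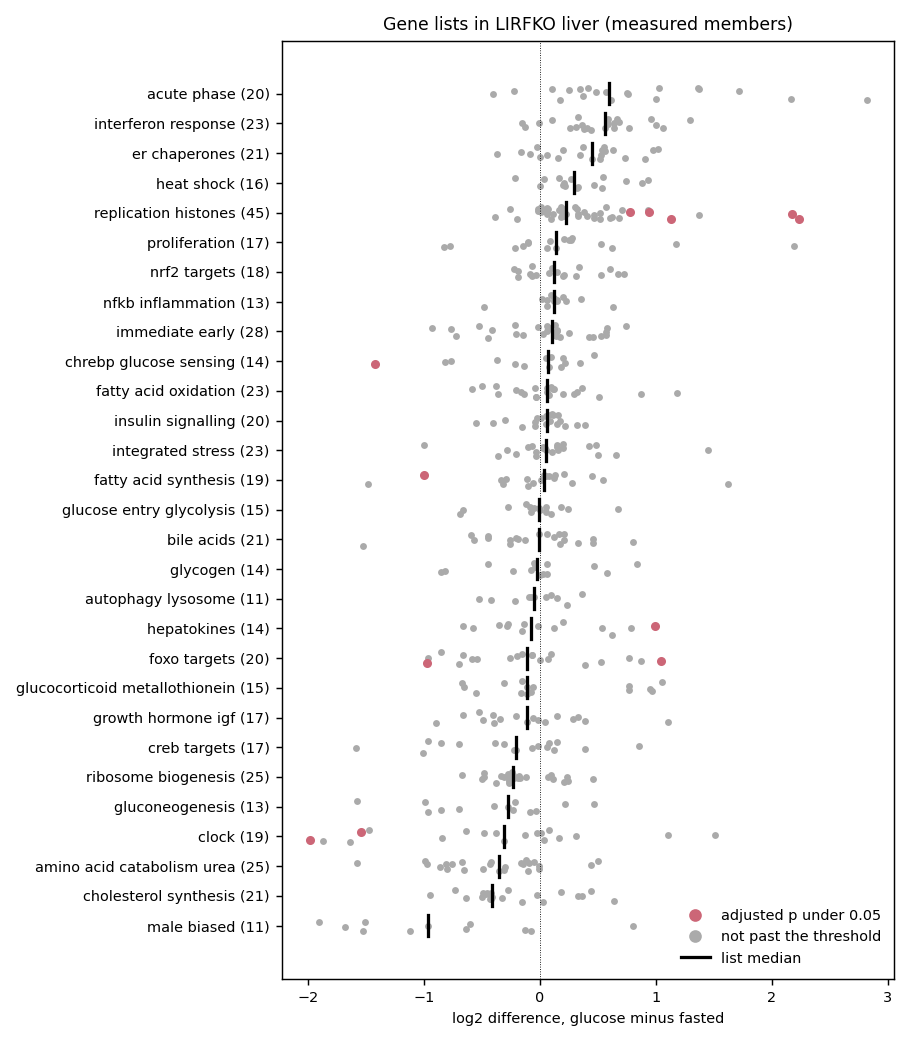
Log2 difference between glucose and fasted LIRFKO livers for the measured members (points) of 29 gene lists, with list medians as black bars and the number of members in brackets. Genes past the threshold are in red: 5 histones, Nr1d1 and Nr1d2, Txnip, Acss2, Inhba, and Cited2 and Trib1 of the FoxO1 targets.

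The other lists held no called gene. Among the pathway lists, the largest shifts of a median were in genes expressed more in male than female liver (-0.97 over 11 genes, 10 below 0), in acute phase genes (0.59 over 20) and in interferon-induced genes (0.56 over 23), against 0.00 over all genes. At an unadjusted p under 0.05 in limma, 6 of the 11 male-biased genes were lower and 1 higher, 7 of the 20 acute phase genes and 8 of the 23 interferon genes were higher and none lower. Over all genes 6.28% were higher and 5.99% lower by that rule. The acute phase and interferon shifts moved with single livers. The acute phase median was 0.16 within slide 184, 1.22 within slide 185, which holds mouse GTT_726, and 0.18 without that mouse, and the interferon median was 0.22 without it and 0.29 without mouse Fast_525. For the male-biased list the median was 0.00 within slide 184 and -1.75 within slide 185. With a mouse left out it stayed below 0, from -1.41 without mouse GTT_725 to -0.67 without mouse GTT_726. Cyp4a12a, a male-specific P450, measured 12.7 in glucose mouse GTT_725 and 10.9 and 10.8 in mice GTT_726 and GTT_727, against 11.7 to 13.0 fasted. Cyp2d9 was lower in each glucose liver (10.4 to 11.9 against 12.0 to 13.2) and missed the threshold (-1.51 ± 0.39, adjusted p = 0.0611). Chaperones of the endoplasmic reticulum had a median of 0.45 (0.24 without mouse Fast_525), with 16 of 21 above 0 (2 higher and 0 lower at an unadjusted p under 0.05 in limma). Amino acid breakdown and urea cycle genes had a median of -0.36, with 23 of 25 below 0 (1 higher and 9 lower at an unadjusted p under 0.05), and ribosome biogenesis genes -0.24, with 18 of 25 below 0.

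Set beside the other genotypes, few responses differed past the threshold. With the difference of responses itself tested in limma, 13 genes differed between LIRFKO and LIRKO (0.0578% of those tested; 2003 at an unadjusted p under 0.05) and 4 between LIRFKO and IR floxed (0.0178%; 2079). The first count ran from 1 to 107 and the second from 2 to 75 when single livers were left out, with the most calls without LIRKO mouse IR.KO_GTT_697 and IR floxed mouse IR.fl_GTT_659. Only Slc22a27 passed against both. Its response was 1.72 in LIRFKO, 0.07 ± 0.20 in LIRKO and -0.07 ± 0.19 in IR floxed mice. The difference was 1.65 ± 0.26 against LIRKO (95% interval 1.12 to 2.17, adjusted p = 0.0100) and 1.79 ± 0.26 against IR floxed (1.25 to 2.33, adjusted p = 0.0028), and both calls held with any 1 of the compared livers left out. Slc22a26 responded by 1.11 ± 0.30 in LIRKO (6.17 to 7.48 after glucose, 5.48 to 6.03 fasted; adjusted p = 0.0898) and by -0.08 ± 0.29 in IR floxed mice. Its difference was 2.77 ± 0.40 against IR floxed (adjusted p = 0.0028) and 1.58 ± 0.39 against LIRKO, which did not pass (0.785 to 2.38, adjusted p = 0.141).

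Sucnr1 moved by -1.88 in LIRFKO and by -0.03 in LIRKO, a difference of -1.84 ± 0.36 (adjusted p = 0.0469). Its levels set that difference in context: in LIRKO the gene was near the bottom of the scale in both states, at 5.47 to 6.13 fasted and 5.49 to 6.03 after glucose, so no fall could be read there. In fasted IR floxed livers it was at 7.46 to 7.79, and its response to glucose there was -0.26 ± 0.26. The difference from the IR floxed response, -1.62 ± 0.37, did not pass in limma (adjusted p = 0.1225). The call against LIRKO was lost in 11 of the 12 fits that left out a liver. Tcf24, a helix-loop-helix factor, went from 5.46, 5.59 and 5.49 to 7.23, 6.29 and 6.22 in LIRFKO (1.03 ± 0.16, adjusted p = 0.0012) and moved by -0.08 in LIRKO (difference 1.12 ± 0.22, adjusted p = 0.0469). Mtx3, a metaxin of the mitochondrial outer membrane, moved by -0.73 in LIRFKO and 0.58 in LIRKO (difference -1.30 ± 0.23, adjusted p = 0.0282), and Spdef, an ETS factor, by 0.60 and -0.49 (1.09 ± 0.19, adjusted p = 0.0282). For Sorbs3, encoding the adhesion protein vinexin, the change was in LIRKO (-1.15 ± 0.13, adjusted p = 4.23e-05), beside -0.09 in LIRFKO. Asic5, an ion channel subunit, rose in IR floxed mice (1.95 ± 0.39, adjusted p = 0.0358) beside -1.23 (adjusted p = 0.141) in LIRFKO.

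**Figure D5:**
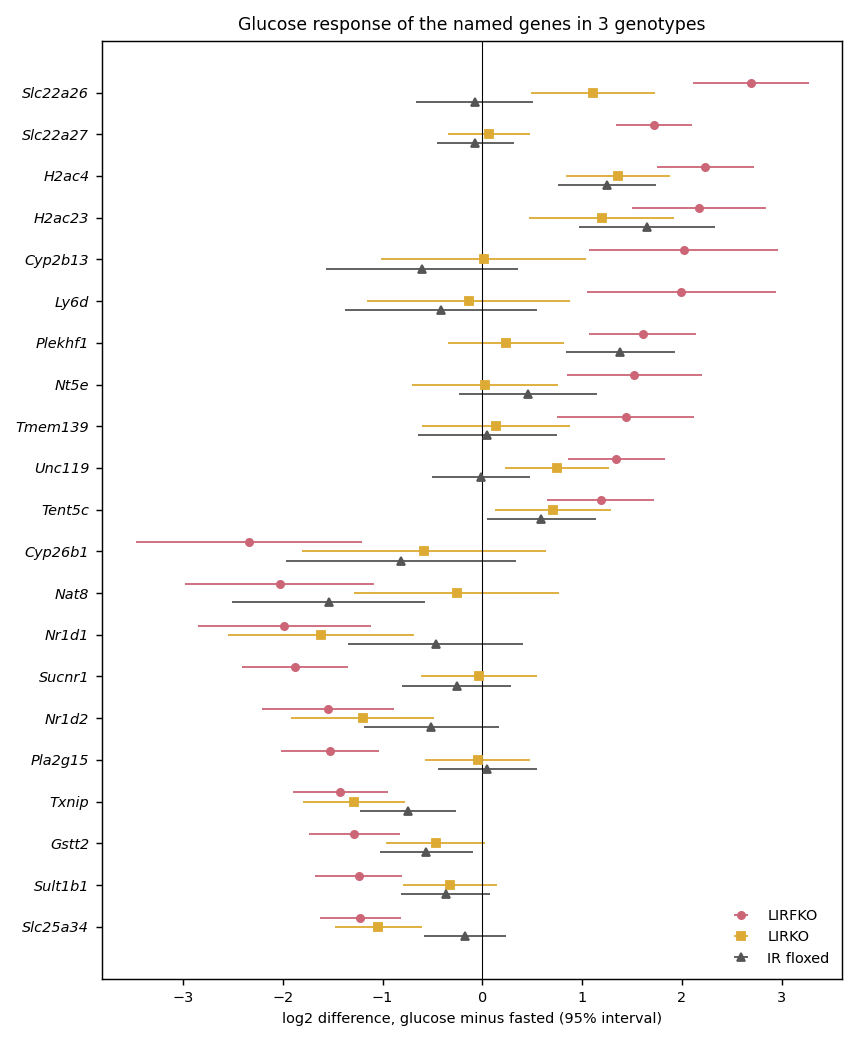
Log2 difference between glucose and fasted livers with its 95% interval (horizontal axis) for 21 genes named in LIRFKO, in LIRFKO (red circles), LIRKO (yellow squares) and IR floxed mice (grey triangles). Histones H2ac4 and H2ac23 are above 0 in all 3 genotypes, while Slc22a27 is at 1.72, 0.07 and -0.07.

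Several LIRFKO responses were shared. In each of the 3 genotypes the glucose and fasted mice have separate number ranges, so cohort and state cannot be told apart in any of them. Of the 147 genes called, 11 were also called in the same direction in LIRKO and 5 in IR floxed mice, where 105 and 36 genes passed in all. H2ac4 rose in all 3 genotypes: by 2.23 in LIRFKO, 1.36 ± 0.25 in LIRKO (adjusted p = 0.0190) and 1.25 ± 0.24 in IR floxed mice (adjusted p = 0.0358). The LIRFKO response exceeded that of LIRKO by 0.87 (95% interval 0.20 to 1.54, adjusted p = 0.389) and that of IR floxed mice by 0.99 (0.30 to 1.67, adjusted p = 0.367), and neither passed. Its level after glucose was 8.60 to 9.05 in LIRFKO, 7.63 to 8.44 in LIRKO and 7.37 to 7.85 in IR floxed mice. H2ac23 rose in IR floxed mice too (1.65 ± 0.33, adjusted p = 0.0358) and was at 1.19 ± 0.35 in LIRKO (adjusted p = 0.119). Plekhf1 rose in IR floxed mice (1.38 ± 0.27, adjusted p = 0.0358) and moved by 0.24 in LIRKO. Txnip fell in LIRKO by 1.29 ± 0.25 on the log2 scale (adjusted p = 0.0240), where it was higher throughout (11.4 to 11.5 fasted, 10.05 to 10.79 after glucose), and was at -0.74 ± 0.24 in IR floxed mice (adjusted p = 0.290). The 95% interval of the difference between the LIRFKO and LIRKO responses of Txnip was -0.80 to 0.52. Pdp2, Slc25a34 and Cited2 also passed in LIRKO, with -1.0, -1.04 and 1.19. Nr1d1 was at -1.62 ± 0.45 in LIRKO (adjusted p = 0.0955) and -0.47 in IR floxed mice.

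Refeeding for 6 h used the same 3 fasted LIRFKO livers, so both responses share their controls and are given side by side only. After refeeding, Slc22a26 was at 0.31 (adjusted p = 0.674), Slc22a27 at 0.61 (adjusted p = 0.0683), H2ac4 at 0.72 (adjusted p = 0.0974) and H2ac23 at 0.58 (adjusted p = 0.418). In 4 refed livers Slc22a26 measured 5.48 to 6.54 and H2ac4 6.74 to 7.60, below the lowest glucose liver in both genes. Nr1d1 measured 6.89 to 7.79 after refeeding (-0.36, adjusted p = 0.772), above every glucose liver. Txnip fell after refeeding too, by 1.07 ± 0.22 on the log2 scale (adjusted p = 0.0117), as did Slc25a34, by 1.34 ± 0.19 (adjusted p = 0.000375). Inhba rose by 0.92 (adjusted p = 0.0256). Fasn, at 0.03 after glucose, rose by 1.50 after refeeding (adjusted p = 0.0080). The cholesterol synthesis list, at -0.41 after glucose, had a median of 1.65 after refeeding. There 10 of its 21 measured genes were called, all higher, against 1.8% of all genes (404) called in that comparison. Metallothionein Mt2 fell by 3.78 on the log2 scale after refeeding (adjusted p = 5.86e-06) and was at 0.97 after glucose (adjusted p = 0.326), where mouse GTT_726 read 15.91, the top of the scale.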

How the data were processed

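The data are one deposited table of log2 values for 45220 features in 38 samples, each sample being one dye channel of a two-colour array (20 arrays on 5 slides). The authors deposited normalized log2 intensities; per the submitters' processing notes they used R 3.1.0 and limma 3.20.1, and no further step is named in the sources used. Column medians lie between 5.72 and 5.78 and values between 5.07 and 16.0, so the columns are on one scale; intensities below or near the median are limited by background, and no detection flags were used. The platform annotation gave 1 gene for 33026 features and none for 12194, and the probe with the highest mean over all columns stood for each of 22485 genes (6138 had several). With 3 mice a group, the number of arrays limits the precision.

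Differences were fitted with limma 3.58.1 (R 4.3.3): a mean for each of 11 groups over 37 samples, which share one estimate of the spread, a dye term, and a random effect of the array (duplicateCorrelation consensus 0.358; residual degrees of freedom 25, prior 1.98), with Benjamini-Hochberg adjustment over all genes and a threshold of 0.05. Errors of differences are limma's standard errors, and intervals are 95%. A difference between responses is a contrast of the same fit. The procedure was also run on simulated data, which cannot show how far the calls made here depend on single mice. Mice are separate animals per their numbers; batches were taken from the slide in the labels, and both dyes occur in both states. The glucose and fasted mice have number ranges that do not overlap (GTT_725 to GTT_727, Fast_518 to Fast_525), and cohort and state cannot be told apart. An IR/FoxO1 floxed fasted library, IRF.fl_Fast_523, had a low Foxo1 value and entered the fit; leaving it out is among the alternatives. Promoter bases came from RefSeq (GRCm38.p6).

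The comparison, the gene lists (29 of pathways, 12 of cell types) and the rule for named genes were chosen with earlier results of these data known, and are described by counts and medians and support no test. The rule named the 10 largest rises and falls past the threshold with no overlap and a mean level above the median of all genes (predicted models passed over), up to 4 members of smallest p per list, a list of key genes, and up to 5 genes per direction of each difference of responses; genes outside it are named as chosen after their values were seen, or as members of a list or family. The genes Slc22a26, Slc22a27, Tcf24, Klf1, Slc27a1, Saa1, S100a8, S100a9, Dbp, Arrdc4, Cyp2b9, Cyp2b10, Rnf144b, Prom2, Ttyh3, Ivd, Echdc2, Pxmp2, Mpv17l, Pdp2, Cdc20, Aurka, Cenpe and Espl1 were chosen after their values were seen. List genes absent from the table were not analysed here. One gene that the rule selects is not reported here. Alternatives changed the slide, array and dye terms, the samples fitted, the normalization, the filter, the probe rule, the variance prior and the mice.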

Additional observations from a re-analysis of the deposited data

Results flagged for a closer look

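A difference between genotypes in the response to glucose, tested as a contrast of responses, passed the limma threshold in the following genes; values are log2, LIRFKO minus the other genotype. Against LIRKO mice the response was higher in LIRFKO for Slc22a27 (1.65), Tcf24 (1.12), Spdef (1.09), Sorbs3 (1.05), Nras (0.77) and Cyb5r4 (0.70). It was lower for Sucnr1 (-1.84), Mtx3 (-1.30), Hhip (-1.08), Coa8 (-0.98), 2510002D24Rik (-0.86), Dlg3 (-0.83) and Stard9 (-0.68). Against IR floxed mice it was higher for Slc22a26 (2.77), Slc22a27 (1.79) and Asb13 (1.12) and lower for Asic5 (-3.18). Of the 13 genes that differed from LIRKO, 5 were themselves called in LIRFKO. For Hhip, Coa8, Dlg3 and Stard9 the called change was a rise in LIRKO (0.80, 0.76, 0.51 and 0.51). In LIRFKO these genes moved by -0.28, -0.22, -0.31 and -0.17, and none was called. Nras (0.33), Cyb5r4 (0.30) and 2510002D24Rik (-0.47) were not called in LIRFKO either. When each liver of the compared groups was left out in turn, Slc22a27 (both contrasts) and Slc22a26 were lost in 0 fits, Sorbs3 in 3 of 12 and Asic5 in 3 of 13. The others were lost in 7 to 11 fits. In Asic5, fasted LIRFKO mouse Fast_518 (8.65) lay within the range after glucose (8.53 to 9.07), below the other fasted mice (11.35 and 10.33). Sucnr1 lay near the bottom of the scale in LIRKO livers in both states, so no fall could be read there.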

How the results depend on the processing

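The count of genes called after glucose in LIRFKO was 147. It became 43 without the array block, 59 without the dye term and 0 in a fit of the compared groups alone, which could be fitted only without the array block, and ranged from 18 to 161 with a mouse left out. The count of responses differing from LIRKO (13) became 0, 2 and 0 under those 3 settings, 3 among genes above the median level, 7 with probes averaged, 6 with an intensity trend and 8 without IRF.fl_Fast_523, and ranged from 1 to 107 with a mouse left out. That against IR floxed mice (4) became 2 without the array block, 0 in the compared groups alone and 2 among genes above the median level, and ranged from 2 to 75. Of 42 called genes followed by name, 33 lost their call without mouse Fast_525, 24 without mouse GTT_726 and 24 without the array block. All 42 lost it in the compared groups alone. They were picked from the same values, which favours a stable sign, and none changed sign in the refits run. Uncalled genes did: with a mouse left out, Igfbp1 ranged from -1.27 to 0.46, Srebf1 from -0.25 to 0.10, Fasn from -0.31 to 0.45 (-0.016 with slide as a block) and Sorbs3 from -0.17 to 0.022. The cause was not tested. No paired analysis was possible because no mouse is in both groups; with the slide as a fixed block 119 genes were called. Signals near background limit falls and low levels, and 3 mice a group limit all counts.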

Other observations

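The LIRFKO liver GTT_724, titled as a glucose sample and labelled fasted elsewhere, belongs to no group here and its values are given alone. Slc22a26 measured 5.84 in it (5.50 to 5.82 in fasted LIRFKO livers, 7.40 to 8.84 after glucose) and Slc22a27 5.48 (5.44 to 5.49 and 6.49 to 7.50). H2ac4 measured 8.68 (6.48 to 6.69 and 8.60 to 9.05), Nr1d1 5.96 (7.67 to 8.03 and 5.84 to 6.00) and Txnip 9.05 (9.33 to 10.26 and 8.28 to 8.65). Plekhf1 measured 8.53 (6.90 to 7.18 and 8.41 to 8.85), Nr1d2 8.01 (9.02 to 9.69 and 7.73 to 8.27), Sucnr1 6.25 (7.64 to 8.05 and 5.53 to 6.51), Nat8 8.75 (10.87 to 11.48 and 8.64 to 9.64) and Cyp2b13 5.58 (5.63 to 5.98 and 7.22 to 8.91). Of the 147 genes called between the labelled groups, its value lay within the range of the glucose livers alone in 53, within that of the fasted livers alone in 21, within both in 1, between the ranges in 56, past the glucose range in 13 and past the fasted range in 3.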
